A study of Mus musculus with 12 samples.

Results

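Genes around the FOXO transcription factors were followed, namely the factors Foxo1 and Foxo3 and the feedback and target genes Irs2, Insr, Pik3ip1, Sesn1, Sesn3, Ccng2, Trib1 and Tsc22d3. They were taken by symbol, and all 10 were found among the 23234 gene symbols of the expression table. The cells were primary mouse acute myeloid leukaemia cells with NRASG12V and Mll-AF9, from a cross of strains FVB/n and C57/BL/6J, kept in serum with GM-CSF. They were cultured for 24 h with 20 µM PD325901, an inhibitor of the kinases MEK1 and MEK2, with 26 µM RAD001 (everolimus), an inhibitor of mTOR complex 1, with 20 µM GDC0941 (pictilisib), an inhibitor of class I PI3 kinases, or with the vehicle DMSO. RNA of 3 libraries per treatment was sequenced. Every group, DMSO included, carried both oncogenes and received GM-CSF. The number of leukaemias or mice behind the libraries is not stated, so the p-values measure the spread between these libraries, which may be technical.

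FOXO factors are forkhead proteins that switch on genes of cell cycle arrest, stress defence and insulin signalling. When growth factors activate PI3 kinase, the kinase AKT phosphorylates FOXO proteins, which then bind 14-3-3 proteins and leave the nucleus. Several FOXO targets feed back on the pathway: Insr encodes the insulin receptor and Irs2 the adaptor that couples receptors to PI3 kinase, while sestrins hold back mTOR complex 1. The location and phosphorylation of FOXO proteins were not measured here, only transcript levels.

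Levels are given in FPKM, sequenced fragments scaled to transcript length and library size. Tests covered the 10305 genes that averaged 1 FPKM or more across libraries, and all 10 members were among them. Read counts were not part of the table, so the depth behind a value is unknown. The FPKM of a library added up to 462335 to 587581, and Spearman correlations across tested genes were 0.966 to 0.996 within groups. Of 16 leukaemia and myeloid markers 14 were tested, and 5 rose and 3 fell with PD325901, 7 and 3 with RAD001, and 4 and 3 with GDC0941. Of all tested genes 18.4% rose and 28.2% fell with PD325901, 15.4% and 15.9% with RAD001, and 11.6% and 12.7% with GDC0941. The granule protein genes Elane and Mpo, which mark promyelocytes, fell with RAD001 and GDC0941. Elane averaged 1.16 FPKM with RAD001 and 2.66 with GDC0941, against 34.6 with DMSO, and Mpo 2.25 and 3.94, against 23.1 with DMSO. The progenitor marker Cd34 fell with PD325901, RAD001 and GDC0941, to 3.61, 6.84 and 4.44 FPKM, against 24.0 FPKM with DMSO. Itgam and Fcgr3 of the same list rose with RAD001 (811 and 714 FPKM) and GDC0941 (537 and 778). They fell with PD325901 (228 and 244), against 336 and 381 with DMSO. Lyz2, also on that list, was listed at 0 in every library, which can stand for a failed estimate. The 8 B cell markers in the table summed to 25.7 to 44.0 FPKM with PD325901, 5.74 to 9.93 with RAD001, 7.80 to 13.2 with GDC0941 and 16.8 to 17.7 with DMSO. Of these, Pax5 and Ebf1 were listed at 0 in every library, and 3 were tested. Cd22 rose with all 3 inhibitors, while Cd79b and Blnk fell with RAD001 (adjusted p = 0.00126 and 0.0117) and GDC0941 (0.00129 and 0.0218). The Blnk call for GDC0941 ended with only the 2 groups (0.0537) and without GDC0941 replicate 2 or 3 or any 1 DMSO library (0.0512 to 0.0865). Of 12 T and NK cell markers only Cd3d reached a mean of 1 FPKM. Their summed level was 5.34 to 11.6 FPKM with PD325901, 0.554 to 4.45 with RAD001, 0.133 to 1.95 with GDC0941 and 0.620 to 6.99 with DMSO, and replicate 1 was lowest in each group. Neutrophil maturation markers, 13 genes, summed to 36220 to 47680 FPKM with PD325901, 22380 to 26970 with RAD001, 8195 to 12560 with GDC0941 and 17800 to 18340 with DMSO. S100a8 and S100a9 made up most of every sum. Their means were 15196 and 16045 FPKM with PD325901 and 7180 and 7353 with DMSO. With RAD001 they were 9290 and 9337, and with GDC0941 4378 and 4668. Of the 13 genes, 9 rose and 0 fell with PD325901, 5 and 0 with RAD001, and 2 and 9 with GDC0941. Monocyte and macrophage markers, 14 genes, summed to 4972 to 6515, 4048 to 4841 and 5343 to 5643 FPKM with PD325901, RAD001 and GDC0941, and to 2866 to 3260 with DMSO. Of these 14 genes, 5 rose and 5 fell with PD325901, 6 and 1 with RAD001, and 4 and 2 with GDC0941. The part of these markers in the results for the FOXO genes was not tested. In such bulk samples, fewer cells of a type and less RNA per cell cannot be told apart.

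Promoter windows from RefSeq (build GRCm38.p6, 250 bases before to 50 after a transcription start) were found for 8 members in 11 windows. They were searched on both strands for GTAAACA, the DAF-16 family binding element that FOXO proteins recognise, and for CAAAACA, the core of insulin response sequences. GTAAACA occurred in 1 of the 11 windows, a start of Sesn1, and in 3.65% of all 32851 windows. CAAAACA occurred in 2 windows, those of Irs2 and Ccng2, and in 6.28% of all windows. These 3 windows are shown because they hold the letters of the FOXO elements, in capitals, as read on the strand of the gene. The Sesn1 match, from 23 to 29 counted from the first transcribed base, and the Irs2 match, from -37 to -31, lie on the opposite strand, and the Ccng2 match, from -16 to -10, on the strand of the gene. A match in letters is a description, and FOXO binding was not measured. The windows are chr10:41810324-41810623 (plus strand) for Sesn1, chr8:11008880-11009179 (minus strand) for Irs2 and chr5:93267323-93267622 (plus strand) for Ccng2.
Sesn1: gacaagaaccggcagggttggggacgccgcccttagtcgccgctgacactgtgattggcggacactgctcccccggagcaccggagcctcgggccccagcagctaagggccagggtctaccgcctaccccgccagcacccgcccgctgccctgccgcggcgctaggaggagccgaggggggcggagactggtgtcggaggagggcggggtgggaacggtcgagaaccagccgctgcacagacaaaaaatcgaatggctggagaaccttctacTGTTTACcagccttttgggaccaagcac
Irs2: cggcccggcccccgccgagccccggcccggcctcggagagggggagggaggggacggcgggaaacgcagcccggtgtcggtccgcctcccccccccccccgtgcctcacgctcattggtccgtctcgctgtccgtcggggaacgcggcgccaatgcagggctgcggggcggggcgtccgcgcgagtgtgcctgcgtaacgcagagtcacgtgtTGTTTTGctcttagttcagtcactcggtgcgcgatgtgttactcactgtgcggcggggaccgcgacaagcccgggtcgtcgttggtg
Ccng2: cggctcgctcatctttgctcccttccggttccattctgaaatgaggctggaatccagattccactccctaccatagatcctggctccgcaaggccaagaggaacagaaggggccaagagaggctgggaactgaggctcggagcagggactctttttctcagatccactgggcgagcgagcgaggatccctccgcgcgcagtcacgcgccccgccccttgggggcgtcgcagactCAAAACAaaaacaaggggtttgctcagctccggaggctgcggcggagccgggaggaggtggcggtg

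The members did not move as a block with any inhibitor. With PD325901, 4 of 10 members rose (Foxo1, Insr, Ccng2 and Tsc22d3) and 0 fell, where 18.4% of all tested genes rose and 28.2% fell. With RAD001, 1 member rose (Trib1) and 4 fell (Pik3ip1, Sesn1, Sesn3 and Tsc22d3), where 15.4% of all tested genes rose and 15.9% fell. With GDC0941, 2 rose (Irs2 and Trib1) and 2 fell (Sesn1 and Sesn3), where 11.6% rose and 12.7% fell. The calls are those of limma on log2(FPKM + 1) with Benjamini-Hochberg adjusted p under 0.05, and the members were chosen with earlier results of these data known. The median log2 change of the members was 0.27 with PD325901, 0.09 with RAD001 and -0.18 with GDC0941, against -0.06, 0.0039 and 0.02 over all tested genes. The 3 PD325901 libraries lay apart from the 3 DMSO libraries for 5 members, all above, and for 62.7% of all tested genes in either direction. RAD001 libraries lay apart for 7 members, 3 above and 4 below (50.8% of all tested genes), and GDC0941 libraries for 6, 3 above and 3 below (38.7%). The 3 comparisons share the DMSO libraries. The number of RAD001 calls went to 9 with library weights (5 higher and 4 lower) and to 3 with a filter at a mean of 5 FPKM, which leaves 6 members. That filter left 2 calls for GDC0941. After quantile normalization 52.1% of all PD325901 calls were rises, against 39.4% in the values as deposited.

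**Figure D1:**
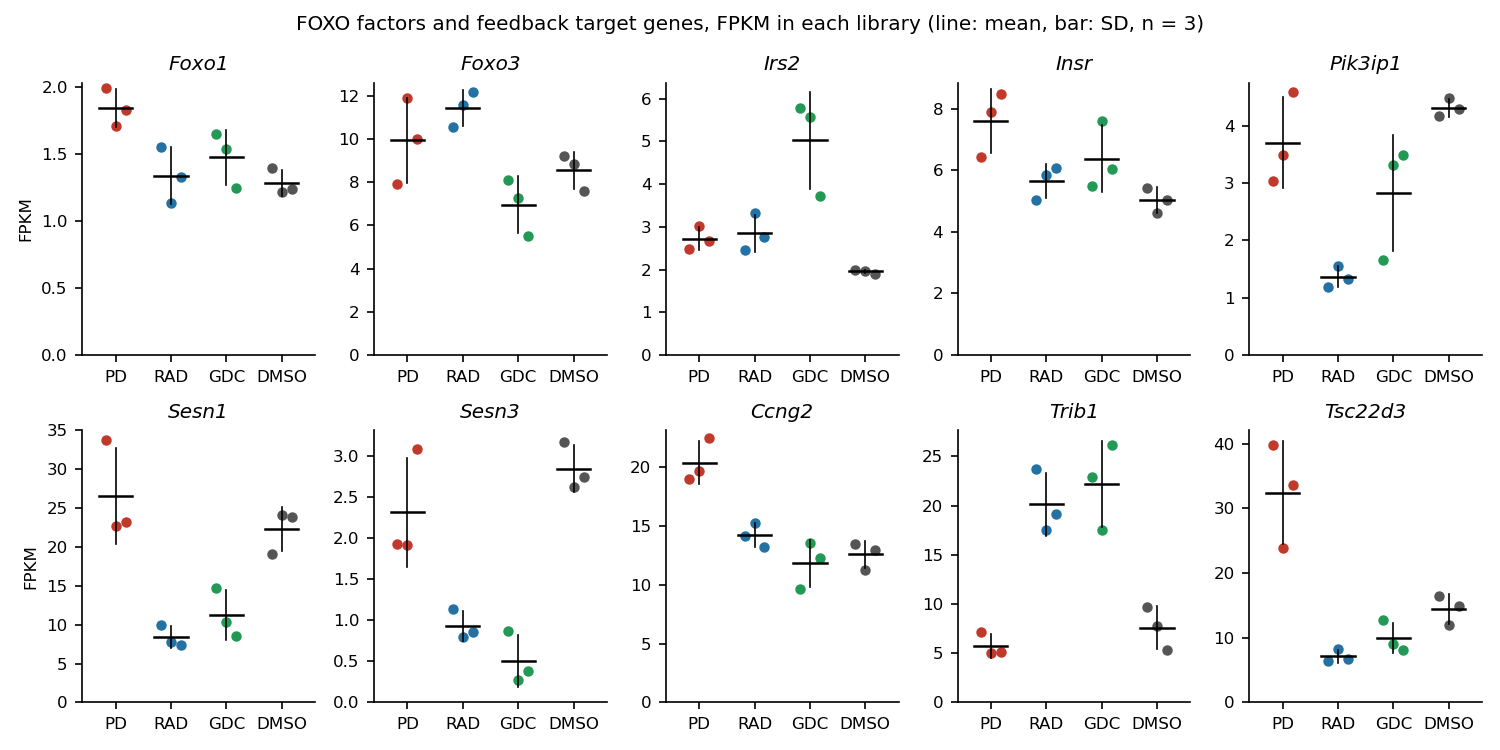
FPKM (vertical axis, from 0) of the 10 members in each library for PD325901 (PD), RAD001 (RAD), GDC0941 (GDC) and DMSO; points are libraries, lines are means and bars are SD (n = 3). Sesn1 and Sesn3 sit low with RAD001 and GDC0941, Trib1 sits high with both, and Tsc22d3 is highest with PD325901.

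The FOXO factor transcripts spanned 0.32 (Foxo1) and 0.66 (Foxo3) on the log2 scale between the lowest and the highest group mean, against 2.01 for Tsc22d3, the widest of the 10 members. Foxo3, the more abundant of the pair, was at 7.93, 11.9 and 9.99 FPKM with PD325901, 10.6, 11.6 and 12.2 with RAD001, 8.12, 7.25 and 5.53 with GDC0941, and 9.19, 8.85 and 7.60 with DMSO. Foxo1 was at 1.99, 1.71 and 1.83 FPKM with PD325901, 1.55, 1.13 and 1.33 with RAD001, 1.65, 1.53 and 1.25 with GDC0941, and 1.40, 1.22 and 1.24 with DMSO. All Foxo1 libraries with PD325901 lay above all DMSO libraries, while those of RAD001 and GDC0941 overlapped them. Foxo1 rose with PD325901 by 0.32 ± 0.11 on the log2 scale (SE; adjusted p = 0.0298, limma). This call ended without PD325901 replicate 1 (adjusted p = 0.0868) or 3 (0.0701) and without DMSO replicate 2 (0.0892) or 3 (0.0835), and the change was 0.49 with 0.1 FPKM added before the logarithm and 0.12 with 5. With RAD001 the change was 0.03 ± 0.11 (adjusted p = 0.842) and with GDC0941 0.11 ± 0.11 (adjusted p = 0.475), which passed only after quantile normalization (0.32, adjusted p = 0.0262). No Foxo3 comparison with DMSO passed. Its log2 change was 0.18 (95% interval -0.15 to 0.51, adjusted p = 0.337) with PD325901, 0.38 (0.06 to 0.71, adjusted p = 0.0731) with RAD001 and -0.27 (-0.60 to 0.06, adjusted p = 0.218) with GDC0941, by limma. The 3 RAD001 libraries of Foxo3 lay above all DMSO libraries. That comparison passed after quantile normalization (adjusted p = 0.0409), with only those 2 groups (0.0227), with library weights (0.000277), without PD325901 replicate 1 (0.0484) and without GDC0941 replicate 3 (0.0449). With the replicate 1 libraries of all 4 groups left out, Foxo3 passed for RAD001 (0.49, adjusted p = 0.0148) and PD325901 (0.37, adjusted p = 0.0388), and with library weights for PD325901 (0.32, adjusted p = 0.00790).

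The mean levels of both insulin signalling genes were above the DMSO mean with each inhibitor. Irs2 was at 2.49, 3.02 and 2.66 FPKM with PD325901, 2.45, 3.32 and 2.77 with RAD001, 5.79, 5.58 and 3.72 with GDC0941, and 1.99, 1.97 and 1.90 with DMSO. Every inhibitor-treated library lay above the highest DMSO library, and the GDC0941 libraries lay above all others. Irs2 rose with GDC0941 to 2.57 times the DMSO mean (log2 change 1.01 ± 0.14, adjusted p = 0.000686, limma; 0.52 with 5 FPKM added). Irs2 did not pass with PD325901 (log2 change 0.33 ± 0.14, adjusted p = 0.0734) or RAD001 (0.37 ± 0.14, adjusted p = 0.0644). The RAD001 comparison passed with the replicate block (adjusted p = 0.0460), with 0.1 FPKM added (0.0476), after quantile normalization (0.0101), with only the 2 groups (0.0342), with library weights (7.52e-05), without RAD001 replicate 1 (0.0476), GDC0941 replicate 1 (0.0481) or GDC0941 replicate 3 (0.0164), and without replicate 1 of all 4 groups (0.0358). The PD325901 comparison passed after median-ratio scaling (0.0378) and quantile normalization (0.0104), with only the 2 groups (0.0162), with library weights (0.00235) and without GDC0941 replicate 3 (0.0189).

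Insr, the receptor upstream of Irs2, was at 6.43, 7.90 and 8.46 FPKM with PD325901, 5.04, 5.84 and 6.07 with RAD001, 5.50, 7.61 and 6.03 with GDC0941, and 5.44, 4.60 and 5.04 with DMSO. The PD325901 libraries and the GDC0941 libraries lay above all DMSO libraries, and the RAD001 libraries overlapped them. Insr rose with PD325901 by 0.51 ± 0.13 on the log2 scale (adjusted p = 0.00695, limma; 0.33 with 5 FPKM added). It did not pass with GDC0941 (0.28 ± 0.13, adjusted p = 0.129) or RAD001 (0.14 ± 0.13, adjusted p = 0.421). With library weights it passed in both (adjusted p = 0.00856 and 0.0122), and without replicate 1 of all 4 groups it passed with GDC0941 (0.42, adjusted p = 0.0148). The related receptor gene Igf1r had another order. Igf1r rose with RAD001 (7.19 ± 1.02 FPKM, SD, n = 3; log2 change 1.16 ± 0.17, adjusted p = 0.000547) and GDC0941 (5.14 ± 1.25 FPKM; 0.74 ± 0.17, adjusted p = 0.00896), against 2.68 ± 0.71 FPKM with DMSO, by limma. With PD325901 it was at 2.18 ± 0.18 FPKM and did not pass (adjusted p = 0.361). Irs1, the other main adaptor, was at 0 in 9 libraries and at most 0.0110 FPKM in the rest.

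Pik3ip1 encodes a membrane protein that binds and inhibits the catalytic subunit of PI3 kinase. It was at 3.03, 3.49 and 4.58 FPKM with PD325901, 1.19, 1.56 and 1.33 with RAD001, 1.66, 3.31 and 3.50 with GDC0941, and 4.16, 4.48 and 4.29 with DMSO. The RAD001 libraries were the lowest of all, and GDC0941 replicate 1 stood near them. Pik3ip1 fell with RAD001 to 0.315 times the DMSO mean (log2 change -1.17 ± 0.19, adjusted p = 0.000969, limma; -0.55 with 5 FPKM added). With GDC0941 all libraries lay below DMSO, but the change of -0.51 ± 0.19 did not pass (adjusted p = 0.0671). Of the single libraries left out in turn, it passed without GDC0941 replicate 3 (-0.65, adjusted p = 0.0441). With PD325901 it was -0.19 ± 0.19 (adjusted p = 0.434).

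The sestrin genes were lower with RAD001 and with GDC0941. Sestrins bind the GATOR2 complex and so hold back mTOR complex 1 when amino acids are short. Sesn1 was at 33.7, 22.7 and 23.2 FPKM with PD325901, 9.96, 7.79 and 7.39 with RAD001, 14.8, 10.3 and 8.50 with GDC0941, and 19.1, 24.1 and 23.8 with DMSO. All RAD001 and all GDC0941 libraries lay below all DMSO libraries. Sesn1 fell with RAD001 to 0.375 times (log2 change -1.32 ± 0.20, adjusted p = 0.000751) and with GDC0941 to 0.501 times the DMSO mean (-0.96 ± 0.20, adjusted p = 0.00572), by limma. With PD325901 it did not pass (0.22 ± 0.20, adjusted p = 0.385), and the change was -0.06 without replicate 1 of all 4 groups.

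Sesn3 was low throughout, at 1.93, 1.92 and 3.08 FPKM with PD325901, 1.14, 0.80 and 0.852 with RAD001, 0.864, 0.268 and 0.382 with GDC0941, and 3.17, 2.62 and 2.75 with DMSO. The RAD001 and GDC0941 libraries lay below all DMSO libraries. Sesn3 fell with GDC0941 to 0.177 times the DMSO mean (log2 change -1.37 ± 0.17, adjusted p = 0.000382) and with RAD001 to 0.327 times (-1.0 ± 0.17, adjusted p = 0.00148), by limma. These log2 changes were -2.40 and -1.52 with 0.1 FPKM added and -0.51 and -0.40 with 5 added. With PD325901 the change was -0.23 ± 0.17 (adjusted p = 0.292). The remaining sestrin gene Sesn2, named from the list of relatives, was at 18.3, 19.9 and 18.1 FPKM with PD325901, 10.1, 11.4 and 11.8 with RAD001, 7.06, 7.42 and 6.54 with GDC0941, and 21.6, 18.9 and 18.7 with DMSO. It fell with RAD001 (-0.78 ± 0.09, adjusted p = 0.000137) and GDC0941 (-1.37 ± 0.09, adjusted p = 1.13e-05), by limma, and not with PD325901 (-0.07 ± 0.09, adjusted p = 0.550). All 3 sestrin genes thus fell with both RAD001 and GDC0941, where 15.9% and 12.7% of all tested genes fell. Sesn2 was named for its small adjusted p, and Sesn1 and Sesn3 were chosen with earlier results known. This count is therefore a description. Of the 14 tested leukaemia and myeloid markers, Elane, Mpo and Cd34 fell with both as well, while 7 rose with RAD001 and 4 with GDC0941. Among those that rose with both were Itgam (log2 change 1.27 with RAD001 and 0.67 with GDC0941) and Fcgr3 (0.91 and 1.03). Cd34 also fell with PD325901 (log2 change -2.39, adjusted p = 0.000701, limma). Elane and Mpo did not pass with PD325901 (log2 change -0.21 and -0.25, adjusted p = 0.672 and 0.550). The part of these markers in the sestrin results was not tested.

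Ccng2 encodes cyclin G2, an unusual cyclin linked to cell cycle arrest. It was at 19.0, 19.6 and 22.5 FPKM with PD325901, 14.1, 15.2 and 13.2 with RAD001, 9.59, 13.5 and 12.3 with GDC0941, and 13.5, 11.3 and 13.0 with DMSO. The PD325901 libraries were the highest 3 of the 12, and the RAD001 and GDC0941 libraries overlapped DMSO. Ccng2 rose with PD325901 to 1.62 times the DMSO mean (log2 change 0.66 ± 0.12, adjusted p = 0.00121, limma). It did not pass with RAD001 (0.16 ± 0.12, adjusted p = 0.325; 0.0113 with library weights) or GDC0941 (-0.09 ± 0.12, adjusted p = 0.623). The relative Ccni also rose with PD325901 (0.42 ± 0.07, adjusted p = 0.000646). Ccng1 did not pass with PD325901, RAD001 or GDC0941 (log2 change -0.09, -0.21 and -0.34; adjusted p = 0.641, 0.310 and 0.121). It passed as lower with library weights and without replicate 1 of all 4 groups, both for RAD001 (adjusted p = 0.000507 and 0.00444) and for GDC0941 (0.00493 and 0.000656), and without GDC0941 replicate 1 for GDC0941 (0.0188).

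Tsc22d3 encodes the leucine zipper protein GILZ, which is induced by glucocorticoids and by FOXO factors. It was at 39.7, 23.9 and 33.6 FPKM with PD325901, 6.39, 8.31 and 6.77 with RAD001, 12.7, 9.04 and 8.16 with GDC0941, and 16.4, 11.9 and 14.9 with DMSO. The PD325901 libraries lay above and the RAD001 libraries below all DMSO libraries. Tsc22d3 rose with PD325901 to 2.25 times the DMSO mean (log2 change 1.10 ± 0.20, adjusted p = 0.00107) and fell with RAD001 to 0.496 times (-0.91 ± 0.20, adjusted p = 0.00543), by limma. With GDC0941 the change was -0.50 ± 0.20 (adjusted p = 0.0884), and it passed without GDC0941 replicate 1 (-0.67, adjusted p = 0.0263) and without replicate 1 of all 4 groups (-0.58, adjusted p = 0.0212). The summed B cell markers were higher in every PD325901 library and lower in every RAD001 and GDC0941 library than in DMSO libraries, and the mean sum of T and NK cell markers was also highest with PD325901. Their part in the Tsc22d3 result was not tested. Tsc22d3 has 3 start sites in RefSeq, and the table gives 1 value for all its transcripts.

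Trib1 encodes a pseudokinase that brings the C/EBP alpha protein to the ubiquitin ligase COP1, and its excess causes myeloid leukaemia in mice. It was at 7.13, 5.0 and 5.13 FPKM with PD325901, 23.7, 17.5 and 19.2 with RAD001, 22.9, 17.5 and 26.2 with GDC0941, and 9.73, 7.74 and 5.34 with DMSO. All RAD001 and GDC0941 libraries lay above all DMSO libraries, and the PD325901 libraries overlapped DMSO. Trib1 rose with GDC0941 to 2.92 times (log2 change 1.44 ± 0.21, adjusted p = 0.000790) and with RAD001 to 2.65 times the DMSO mean (1.32 ± 0.21, adjusted p = 0.000912), by limma. With PD325901 it did not pass (-0.33 ± 0.21, adjusted p = 0.212). Its relative Trib3, a target of the stress factor ATF4, fell with all 3 inhibitors, by 1.25, 1.63 and 1.55 on the log2 scale for PD325901, RAD001 and GDC0941 (adjusted p = 0.00556, 0.00221 and 0.00392). Cebpa rose with PD325901 to 131 ± 18.6 FPKM, against 41.0 ± 8.70 with DMSO (adjusted p = 4e-05). With GDC0941 it was at 59.9 ± 6.75 FPKM (0.55 ± 0.18, adjusted p = 0.0457). That call ended with no filter (0.0731), after median-ratio scaling (0.0620) and quantile normalization (0.0514), with only the 2 groups (0.0653), and without PD325901 replicate 2 or 3, RAD001 replicate 3, GDC0941 replicate 2 or 3 or any 1 DMSO library (0.0538 to 0.156). With RAD001 Cebpa did not pass (0.02 ± 0.18, adjusted p = 0.928). Cebpb rose with PD325901 (0.72 ± 0.17, adjusted p = 0.00529), RAD001 (1.37 ± 0.17, adjusted p = 0.000260) and GDC0941 (0.98 ± 0.17, adjusted p = 0.00244). Cebpe, a factor of granulocyte maturation, rose with PD325901 (0.90 ± 0.15, adjusted p = 0.000725) and fell with GDC0941 (-1.86 ± 0.15, adjusted p = 3.63e-05) and RAD001 (-0.46 ± 0.15, adjusted p = 0.0383). The RAD001 call ended with no filter (0.0617), with only the 2 groups (0.0554), with library weights (0.133), without PD325901 replicate 3, RAD001 replicate 1 or 3 or any 1 DMSO library (0.0527 to 0.121), and without replicate 1 of all 4 groups (0.106).

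**Figure D2:**
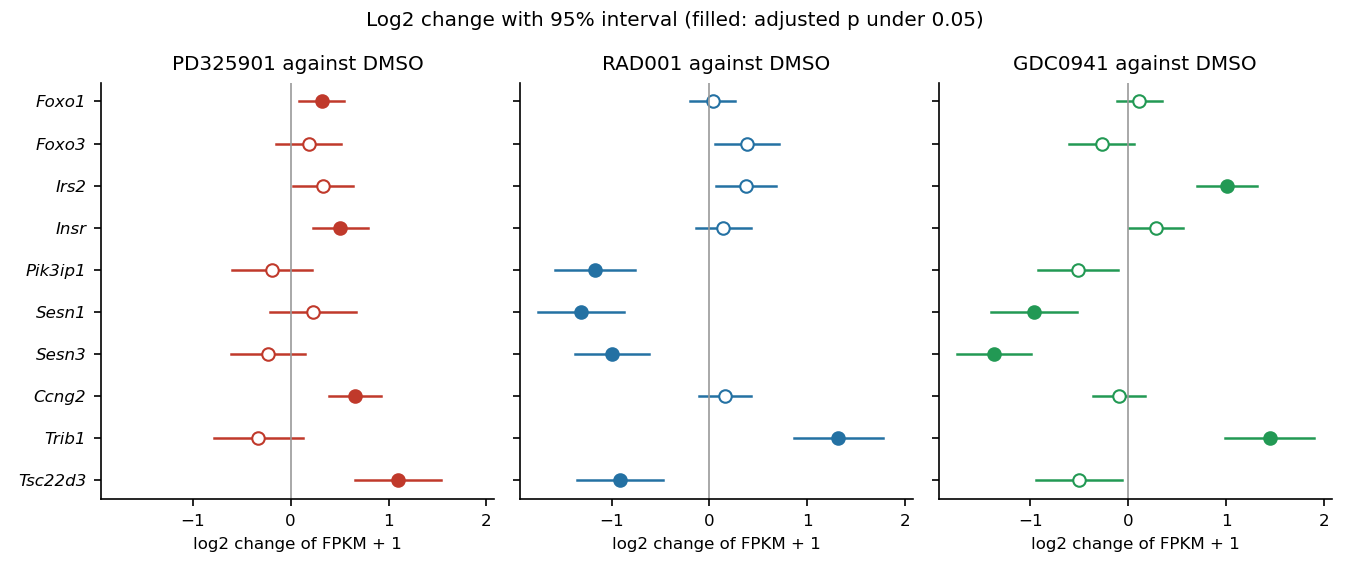
Log2 change of FPKM + 1 (horizontal axis) of each member for PD325901, RAD001 and GDC0941 against DMSO; lines are 95% intervals of the limma fit and filled points have an adjusted p under 0.05. Tsc22d3 lies at 1.10 with PD325901 and at -0.91 with RAD001, and Trib1 at 1.32 with RAD001 and 1.44 with GDC0941.

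The inhibitors were then compared with each other, with p adjusted over all tested genes in each comparison. Of the 10 members, 2 were higher and 5 lower with GDC0941 than with PD325901, where 30.7% of all tested genes were higher and 20.9% lower. Trib1 (log2 difference 1.78 ± 0.21, adjusted p = 3.66e-05) and Irs2 (0.68 ± 0.14, adjusted p = 0.00191; 0.37 with 5 FPKM added) were higher with GDC0941, by limma. Tsc22d3 (-1.60 ± 0.20, adjusted p = 5.66e-05), Sesn1 (-1.18 ± 0.20, adjusted p = 0.000502), Sesn3 (-1.14 ± 0.17, adjusted p = 0.000217) and Ccng2 (-0.75 ± 0.12, adjusted p = 0.000375) were lower. Sesn3 was -2.09 with 0.1 FPKM added and -0.41 with 5. Foxo3 was lower as well (-0.46 ± 0.15, adjusted p = 0.0248), but its libraries overlapped. That call ended with only the 2 groups (0.0680) and without PD325901 replicate 2 (0.109) or 3 (0.0648) or GDC0941 replicate 3 (0.0943). Foxo1 (-0.20, 95% interval -0.43 to 0.03), Insr (-0.22, -0.50 to 0.06) and Pik3ip1 (-0.33, -0.74 to 0.08) did not pass, except Foxo1 after median-ratio scaling (-0.27, adjusted p = 0.0467) and Insr without GDC0941 replicate 2 (-0.34, adjusted p = 0.0435). Median-ratio scaling moved the share of rises among all calls of this comparison to 49.5%, against 59.5% as deposited.

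Between PD325901 and RAD001, 7 members were higher and 1 lower with PD325901, where 20.8% of all tested genes were higher and 29.4% lower. Tsc22d3 (2.01 ± 0.20, adjusted p = 1.17e-05) and Sesn1 (1.54 ± 0.20, adjusted p = 8.17e-05) were higher with PD325901, by limma. Pik3ip1 (0.98 ± 0.19, adjusted p = 0.00114), Sesn3 (0.77 ± 0.17, adjusted p = 0.00320) and Ccng2 (0.49 ± 0.12, adjusted p = 0.00561) were higher too. Pik3ip1 was 0.45 with 5 FPKM added, and Sesn3 was 1.21 with 0.1 added and 0.30 with 5. Trib1 was lower with PD325901 (-1.65 ± 0.21, adjusted p = 6.39e-05). The calls of Insr (0.37 ± 0.13, adjusted p = 0.0317) and Foxo1 (0.28 ± 0.11, adjusted p = 0.0435) depended on single libraries. Insr ended with no filter (0.0528) and without PD325901 replicate 2 (0.0920) or 3 (0.120) or RAD001 replicate 1 (0.103) or 2 (0.0583), and was 0.24 with 5 FPKM added. Foxo1 ended without any 1 of the PD325901 and DMSO libraries, RAD001 replicate 2 or 3 or GDC0941 replicate 2 (adjusted p = 0.050 to 0.161), with only the 2 groups (0.0584), after quantile normalization (0.0573) and with 0.1 FPKM added (0.0508), and was 0.11 with 5 added. Foxo3 (-0.20, 95% interval -0.53 to 0.13) and Irs2 (-0.04, -0.35 to 0.27) did not pass.

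GDC0941 and RAD001 differed for fewer members, 2 higher and 1 lower with GDC0941, where 8.09% of all tested genes were higher and 9.35% lower. Irs2 was higher (0.64 ± 0.14, adjusted p = 0.0114; 0.35 with 5 FPKM added), with every GDC0941 library above every RAD001 library, but the call ended with only the 2 groups (0.0762). Foxo3 was lower (-0.66 ± 0.15, adjusted p = 0.0132), and this call ended without RAD001 replicate 3 (0.0540). Pik3ip1 was higher (0.66 ± 0.19, adjusted p = 0.0331; 0.29 with 5 FPKM added). That call ended with no filter (0.0631), with only the 2 groups (0.117), and without RAD001 replicate 1 (0.0695), 2 (0.0640) or 3 (0.0937), GDC0941 replicate 2 (0.0917) or 3 (0.104) or DMSO replicate 3 (0.050). The count of 3 went to 1 without RAD001 replicate 3 or with only the 2 groups. Sesn1 (0.36, 95% interval -0.08 to 0.80), Trib1 (0.13, -0.33 to 0.58) and Tsc22d3 (0.41, -0.02 to 0.85) did not pass, and these intervals leave room for differences of that size. Foxo1 (0.08, -0.15 to 0.32), Insr (0.14, -0.14 to 0.42) and Ccng2 (-0.26, -0.52 to 0.01) did not pass. Sesn3 (-0.38, adjusted p = 0.151) did not pass either, except without GDC0941 replicate 1 (-0.54, adjusted p = 0.0444) and without replicate 1 of all 4 groups (-0.46, adjusted p = 0.0409).

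**Figure D3:**
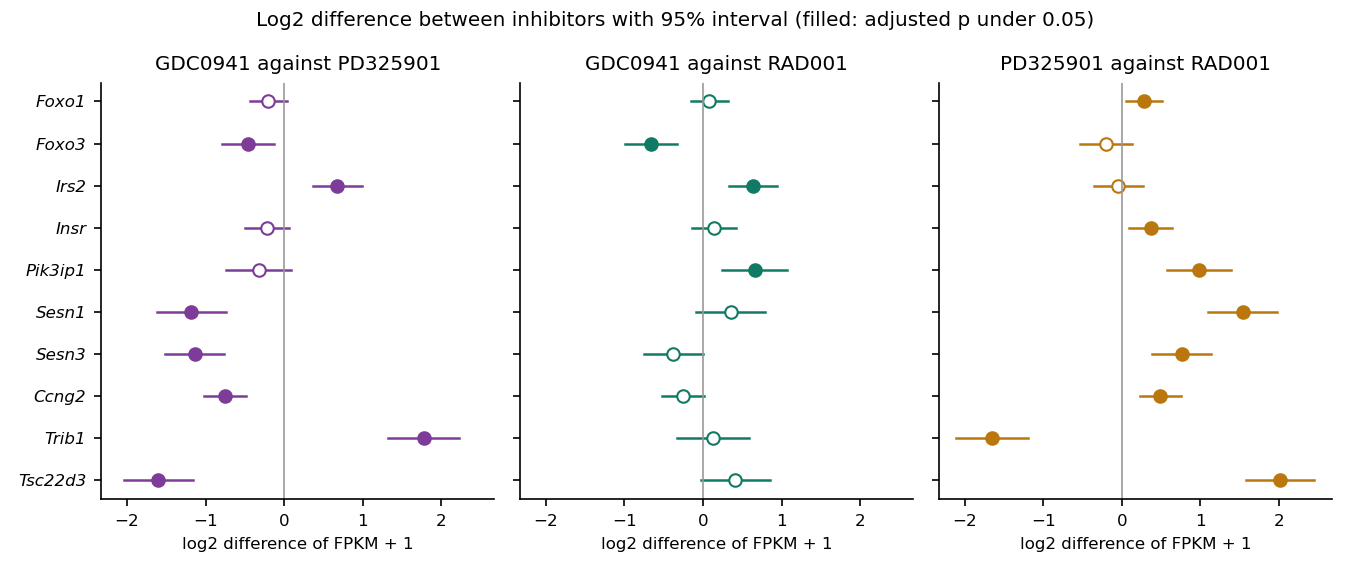
Log2 difference of FPKM + 1 (horizontal axis) of each member between inhibitors, the first named minus the second; lines are 95% intervals of the limma fit and filled points have an adjusted p under 0.05. Sesn1, Trib1 and Tsc22d3 are apart for GDC0941 against PD325901 and for PD325901 against RAD001, and their intervals span 0 for GDC0941 against RAD001.

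Other genes of the pathway came from lists written with earlier results of these data known. Among FOXO factors, Foxo4 was at 6.37, 5.87 and 6.76 FPKM with PD325901, 5.80, 5.63 and 5.75 with RAD001, 7.33, 7.86 and 6.30 with GDC0941, and 5.30, 5.25 and 5.44 with DMSO. It rose with GDC0941 (0.36 ± 0.09, adjusted p = 0.0115, limma; 0.0645 with only the 2 groups). With PD325901 it did not pass (0.21 ± 0.09, adjusted p = 0.0680) except after median-ratio scaling (0.0226), after quantile normalization (0.00451), with library weights (0.00628) and without GDC0941 replicate 3 (0.0317). Foxo6 was at or near 0 in all libraries. Of 43 other FOXO target genes tested, 10 rose and 10 fell with PD325901 (23.3% each), 12 rose and 8 fell with RAD001 (27.9% and 18.6%), and 7 rose and 5 fell with GDC0941 (16.3% and 11.6%). Their median log2 changes were 0.04, 0.14 and 0.01. Over all tested genes the shares were 18.4% and 28.2% with PD325901, 15.4% and 15.9% with RAD001, and 11.6% and 12.7% with GDC0941. Pink1, a kinase of mitochondrial quality control, rose with each of PD325901 (0.94 ± 0.07, adjusted p = 4.23e-06), RAD001 (0.55 ± 0.07, adjusted p = 0.000311) and GDC0941 (0.68 ± 0.07, adjusted p = 0.000131). Ddit4, an mTOR complex 1 inhibitor induced by stress, fell with RAD001 to 4.13 ± 2.13 FPKM and with GDC0941 to 1.76 ± 0.45, against 12.7 ± 3.41 with DMSO (adjusted p = 0.00314 and 0.000384).

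**Figure D4:**
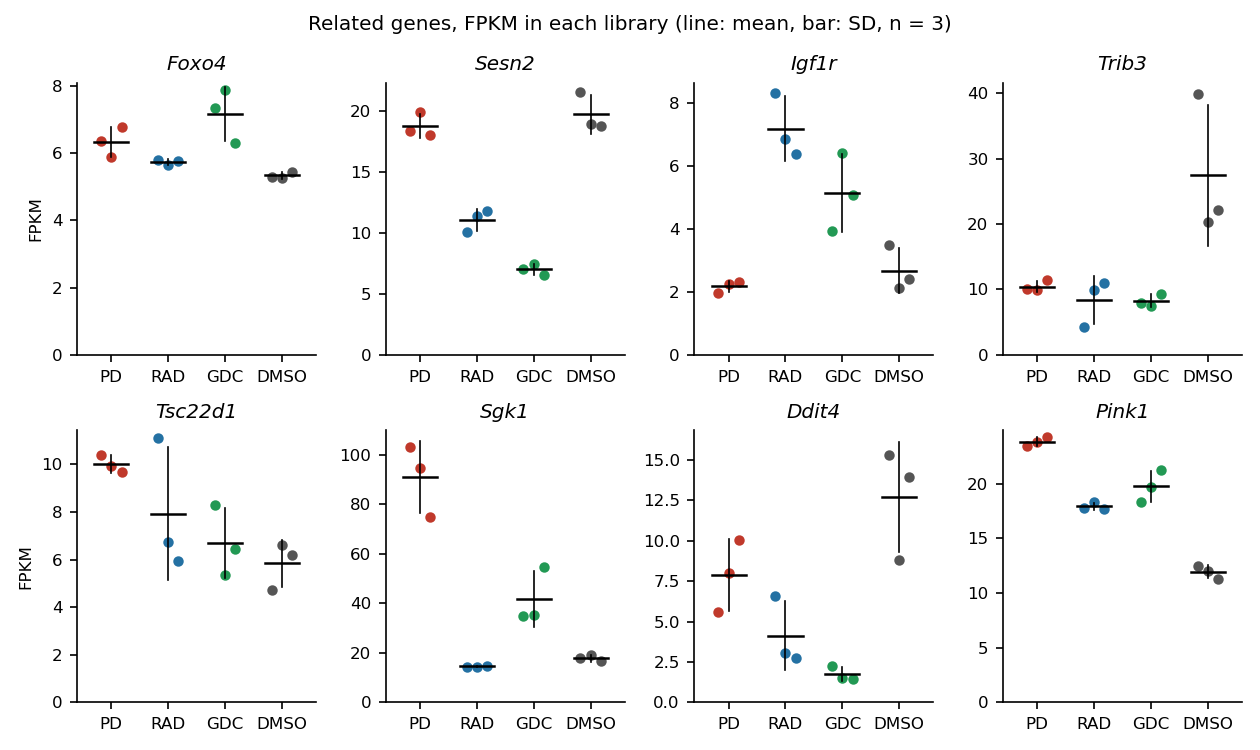
FPKM (vertical axis, from 0) of 8 related genes in each library for PD325901 (PD), RAD001 (RAD), GDC0941 (GDC) and DMSO; points are libraries, lines are means and bars are SD (n = 3). Sesn2 and Ddit4 sit low with RAD001 and GDC0941, Igf1r sits high with both, and Sgk1 is highest with PD325901.

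Genes of the kinases and partners around FOXO proteins were counted in the same way. Of all tested genes 18.4% rose and 28.2% fell with PD325901, 15.4% and 15.9% with RAD001, and 11.6% and 12.7% with GDC0941. Of 33 PI3K and AKT signalling genes tested, 8 rose and 4 fell with PD325901, 9 and 2 with RAD001, and 4 and 4 with GDC0941. As shares these were 24.2% and 12.1%, 27.3% and 6.06%, and 12.1% and 12.1%. The mTOR subunit gene Mlst8 (0.85 ± 0.12) and Ptpn1, a phosphatase that acts on the insulin receptor (0.91 ± 0.14), rose with PD325901 (adjusted p = 0.000191 and 0.000422). Of 25 regulators of FOXO proteins, 5 rose and 8 fell with PD325901, 4 and 1 with RAD001, and 3 and 1 with GDC0941. As shares these were 20% and 32%, 16% and 4%, and 12% and 4%. Sgk1, a kinase that phosphorylates FOXO3 at AKT sites, rose with PD325901 to 90.9 ± 14.5 FPKM (adjusted p = 3.3e-06) and with GDC0941 to 41.6 ± 11.3 (adjusted p = 0.000769), against 17.9 ± 1.39 FPKM with DMSO. With RAD001 it was at 14.5 ± 0.37 FPKM and did not pass (adjusted p = 0.210), except with only the 2 groups (0.0300) and with library weights (0.0205). Of 18 genes of the GATOR complexes and amino acid sensing, the machinery on which sestrins act, 5 rose and 5 fell with PD325901, 0 and 2 with RAD001, and 1 and 0 with GDC0941. As shares these were 27.8% and 27.8%, 0% and 11.1%, and 5.56% and 0%.

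Tsc22d3 and Sesn1 also belong to the glucocorticoid and p53 responses, so those lists were counted without them. Both lists still share genes with the lists above. Sgk1 and Ddit4 (glucocorticoid) and Cdkn1a (p53) are also on the list of other FOXO targets, and Sesn2 (p53) is also on the list of relatives. Of 14 glucocorticoid receptor targets tested, 2 rose and 5 fell with PD325901, 3 and 2 with RAD001, and 3 and 2 with GDC0941, and the median log2 changes were -0.33, 0.24 and 0.30. As shares the counts were 14.3% and 35.7%, 21.4% and 14.3%, and 21.4% and 14.3%. Of 16 p53 targets, 2 rose and 5 fell with PD325901, 3 and 2 with RAD001, and 1 and 3 with GDC0941. As shares these were 12.5% and 31.2%, 18.8% and 12.5%, and 6.25% and 18.8%. The shares of all tested genes were 18.4% and 28.2% with PD325901, 15.4% and 15.9% with RAD001, and 11.6% and 12.7% with GDC0941. Mdm2, the ligase that controls p53, fell with PD325901 (-0.80 ± 0.09, adjusted p = 5.1e-05) and rose with RAD001 (0.50 ± 0.09, adjusted p = 0.00203). As a check on the action of PD325901, the ERK-induced phosphatase gene Dusp6 was at 5.24, 6.67 and 5.63 FPKM with PD325901, 285, 280 and 259 with RAD001, 147, 126 and 133 with GDC0941, and 118, 66.7 and 78.3 with DMSO. It fell with PD325901 by 3.66 ± 0.17 on the log2 scale (adjusted p = 2.4e-07, limma). Dusp6 rose with RAD001 (1.68 ± 0.17, adjusted p = 7.74e-05) and GDC0941 (0.66 ± 0.17, adjusted p = 0.0164), and is no check on the action of these drugs.

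**Figure D5:**
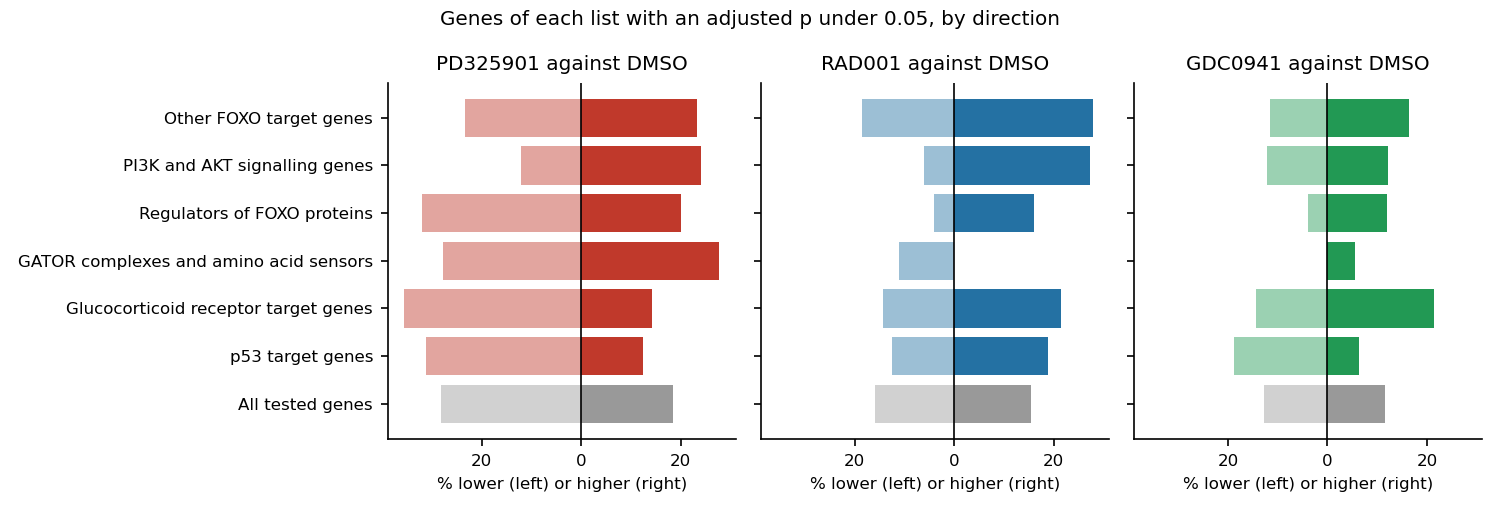
Percentage of the tested genes of each list (members left out) that were lower (left of 0, pale) or higher (right of 0, dark) with an adjusted p under 0.05, for PD325901, RAD001 and GDC0941 against DMSO; the grey bars are all 10305 tested genes. Other FOXO target genes were higher in 23.3%, 27.9% and 16.3% and lower in 23.3%, 18.6% and 11.6%. That list was not split by the direction in which FOXO factors act on a gene.

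For 6 members the group means spanned at least 1 on the log2 scale, and the most similar of 7545 other genes were found for each. Only genes averaging 5 FPKM or more were searched. Likeness was the root mean square difference of log2(FPKM + 1) values over the 12 libraries, each gene centred on its own mean. Apobec1 was nearest to Tsc22d3 (0.18), with 142 FPKM with PD325901, 36.2 with RAD001, 55.2 with GDC0941 and 75.9 with DMSO. Eef2k, the kinase of elongation factor 2, was nearest to Sesn1 (0.20), with 11.0, 4.39 and 5.45 FPKM with PD325901, RAD001 and GDC0941 and 10.7 with DMSO. Atp2a3 was nearest to Sesn3 (0.17), Sgms1 to Trib1 (0.27), Sash1 to Irs2 (0.19) and Klhl22 to Pik3ip1 (0.25). The added 1 FPKM shrinks the changes of the low members Sesn3, Irs2 and Pik3ip1, so their matches can differ in fold change. With GDC0941 Sesn3 averaged 0.505 FPKM, against 2.85 with DMSO, and Atp2a3 14.1, against 35.4. Irs2 averaged 5.03, against 1.95, and Sash1 21.4, against 13.1. These genes were picked for their likeness, which is a description of these 12 libraries.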

How the data were processed

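RNA of 12 libraries was sequenced, 3 for each of PD325901, RAD001, GDC0941 and DMSO. The authors computed FPKM per gene symbol and library. The submitters' processing notes name TopHat2 2.0.4, Cuffdiff and the build mm9. Which annotation, Cuffdiff version and scaling between libraries they used is not stated. Groups were taken from the labels. Genes averaging 1 FPKM or more entered, on the log2(FPKM + 1) scale, a limma 3.58.1 fit in R 4.3.3, as 1 model of 4 group means over all genes and all 12 libraries (8 residual degrees of freedom, eBayes with a trend, two-sided, Benjamini-Hochberg within each comparison, threshold 0.05). Adding 1 FPKM understates the change of low genes. Values after ± are SD with FPKM and SE with log2 changes. The procedure was tested on simulated data.

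The members and lists were chosen with earlier results of these data known. All members were named. From each list, up to 3 genes with the smallest adjusted p under 0.05 per inhibitor could be named, with Dusp6 and Ddit4 as signs of drug action and the genes most alike a member in pattern. Foxo6, Irs1, Ccng1 and the markers Mpo, Cd34, Pax5, Ebf1 and Lyz2 fall outside this rule and were chosen after their values were seen. Same-numbered libraries deviated together, with every correlation above 0.1, for PD325901 against DMSO (lowest 0.183), RAD001 against DMSO (0.201), GDC0941 against RAD001 (0.309) and PD325901 against RAD001 (0.149), but not for GDC0941 against DMSO (0.0354) or PD325901 (-0.139). The same number gave the highest correlation for all 3 libraries of the first-named group in PD325901 against DMSO and GDC0941 against RAD001. In each other comparison it did so for 1 of 3. The labels name no pairs. Alternatives were the pseudocount, the filter, scaling, the libraries fitted, a replicate block, library weights, eBayes without a trend and leaving out each library. Leaving out replicate 1 of all groups was added after seeing the data, since its T cell markers were lowest in each group.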

Additional observations from a re-analysis of the deposited data

How the results depend on the processing

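The number of members called stayed within 1.5 times of the reported one except as follows. For RAD001 against DMSO (5) it was 3 with the filter at a mean of 5 FPKM, which leaves 6 members, and 9 with library weights. With the same filter it was 2 for GDC0941 against DMSO (4), 1 for GDC0941 against RAD001 (3) and 5 for PD325901 against RAD001 (8). With only the 2 groups compared it was 1 for GDC0941 against RAD001, and with single libraries left out it was 1 to 4 there. With single libraries left out it was 3 to 5 for PD325901, 5 to 7 for RAD001 and 4 to 5 for GDC0941 against DMSO, 6 to 8 for GDC0941 against PD325901 and 6 to 8 for PD325901 against RAD001. Of the log2 changes of single members under an alternative, 1277 kept direction and call, 35 lost the call, 35 gained it and 9 turned direction. None of these 9 changes had been called. Foxo1 with RAD001 against DMSO was -0.038 with library weights and -0.034 to 0.096 with single libraries left out. Ccng2 with GDC0941 against DMSO was 0.035 with library weights, 0.086 without replicate 1 of all groups and -0.19 to 0.038 with single libraries left out. Sesn1 with PD325901 against DMSO was -0.060 without replicate 1 of all groups. Irs2 with PD325901 against RAD001 was 0.021 after median-ratio scaling, 0.0038 without PD325901 replicate 1 and -0.12 to 0.045 over all single libraries left out. The cause was not tested. With the replicate block, Irs2 was called for RAD001 (adjusted p = 0.0460, limma) and Pik3ip1 for GDC0941 (0.0259) against DMSO, so that 6 and 5 members were called, and no other call of a member changed. For GDC0941 against DMSO the correlation between same-numbered libraries was 0.303 for replicate 1, 0.0983 for replicate 2 and 0.0354 for replicate 3. The labels do not state a pairing, so the block there rests on the numbers. Depth is unknown, so the counting error of low genes such as Sesn3 cannot be given.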
